A study of Homo sapiens with 2 samples.

Results

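The G1 cyclins, cyclin-dependent kinases (CDKs) and CDK inhibitors were described in A549/DDP and A549 cells through 10 listed genes: CCND1, CCND3, CDK2, CDK4, CDK6, CDKN1B, CDKN1C, CDKN2C, CDKN2D and CDKN3. The members were listed by name, but with earlier results of these data known. Every probe set that the platform annotation gives to a single member gene was used. This gave 25 probe sets of 9 genes, among 54675 probe sets and 19775 genes in all. CDKN2C was not analysed here.

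Total RNA of A549/DDP and of A549 was hybridised to Affymetrix HG-U133 Plus 2.0 arrays to look for genes whose expression goes with cisplatin resistance. A549 is a human lung adenocarcinoma line with the phenotype parental, and A549/DDP is a chemoresistant line derived from it. There was 1 array for each line and no replicate, so no p-value was computed, and line, culture and array cannot be told apart. Both cultures were grown conventionally and detached with 0.25% trypsin before extraction.

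Passage from G1 into S phase is driven by D-type cyclins, which bind and activate CDK4 and CDK6, and then by cyclin E, which activates CDK2. These kinases phosphorylate the retinoblastoma protein and its relatives, which releases E2F transcription factors. The INK4 inhibitors bind CDK4 and CDK6, whereas the CIP/KIP inhibitors bind several cyclin-CDK complexes. Much of this control acts on proteins, through synthesis, phosphorylation and degradation, and is not read by an array.

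Values are log2 MAS5 signals, and differences are A549/DDP minus A549 on that scale. The floor, under which a signal was treated as background, was the median of each array, 6.18 for A549/DDP and 6.22 for A549. ZNF300, the gene that the study selected as raised with resistance, had a log2 signal of 5.76 on the array labelled A549/DDP and 7.59 on the A549 array. This was at least 2.65-fold lower, a direction opposite to that of the study. If the 2 arrays were exchanged, every direction given here would turn round. The sample titled A549/DDP carries a description that mentions ZNF300 overexpression, but its title and phenotype were followed.

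The cultures were checked with 12 markers of epithelia and of A549 cells, of which 8 were above the floor on each array. The summed linear signal was 107175 on the array labelled A549/DDP and 90787 on the A549 array. The brightest were the enzyme genes AKR1B10, at 15.38 in A549/DDP and 15.04 in A549, and AKR1C1, at 14.90 and 15.25. These enzyme genes made up most of each sum, which is therefore no measure of epithelial genes alone. KRT18, a keratin of simple epithelia, had log2 signals of 14.50 in A549/DDP and 13.12 in A549. The adhesion genes EPCAM and CDH1 were under the floor in A549/DDP, at 4.68 and 2.52, and above it in A549, at 7.05 and 7.30. In the other direction, NAPSA and NKX2-1 were above the floor in A549/DDP, at 6.50 and 6.64, and under it in A549, at 5.72 and 4.16. The 8 above the floor were therefore not the same genes on each array. On neither array did KRT19 or ALDH1A1, an aldehyde dehydrogenase gene usually strong in A549 cells, reach the floor. Of the fibroblast markers 2 of 6, of the endothelial markers 1 of 6 and of the haematopoietic markers 1 of 5 measured were above the floor on each array. Their summed linear signals were 1069, 355 and 255 in A549/DDP, against 686, 286 and 280 in A549, and PTPRC was under the floor on both. The genes above the floor were not all the same on both arrays. CD3E passed it only in A549/DDP, at 6.93, and HBB only in A549, at 7.08. Among the fibroblast markers, COL1A2 passed it only in A549/DDP and DCN only in A549. The part of these markers in the differences below was not tested.

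All 9 measured members reached the floor on at least 1 array. None of the 9 differed by 3-fold in either direction. Over all 13159 expressed genes, the 3-fold threshold was passed by 2.14% in the higher and by 2.18% in the lower direction, so 9 genes are too few to read that count against the background. At 2-fold, CDK2, CDKN3 and CCND3 were higher and no member was lower. The background at 2-fold was 6.13% higher and 7.4% lower. The difference was above 0 for 7 members and below 0 for CDKN1C and CDKN2D. The median difference of the 9 was 0.77, or 1.70-fold, beside a median of 0.00 over all expressed genes. The 75th percentile of the difference over expressed genes was 0.38, and the central 95% ran from -1.52 to 1.46. Each of the 9 members lay inside that range. In these bulk samples, more cells expressing a gene and more RNA per cell cannot be told apart.

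**Figure D1:**
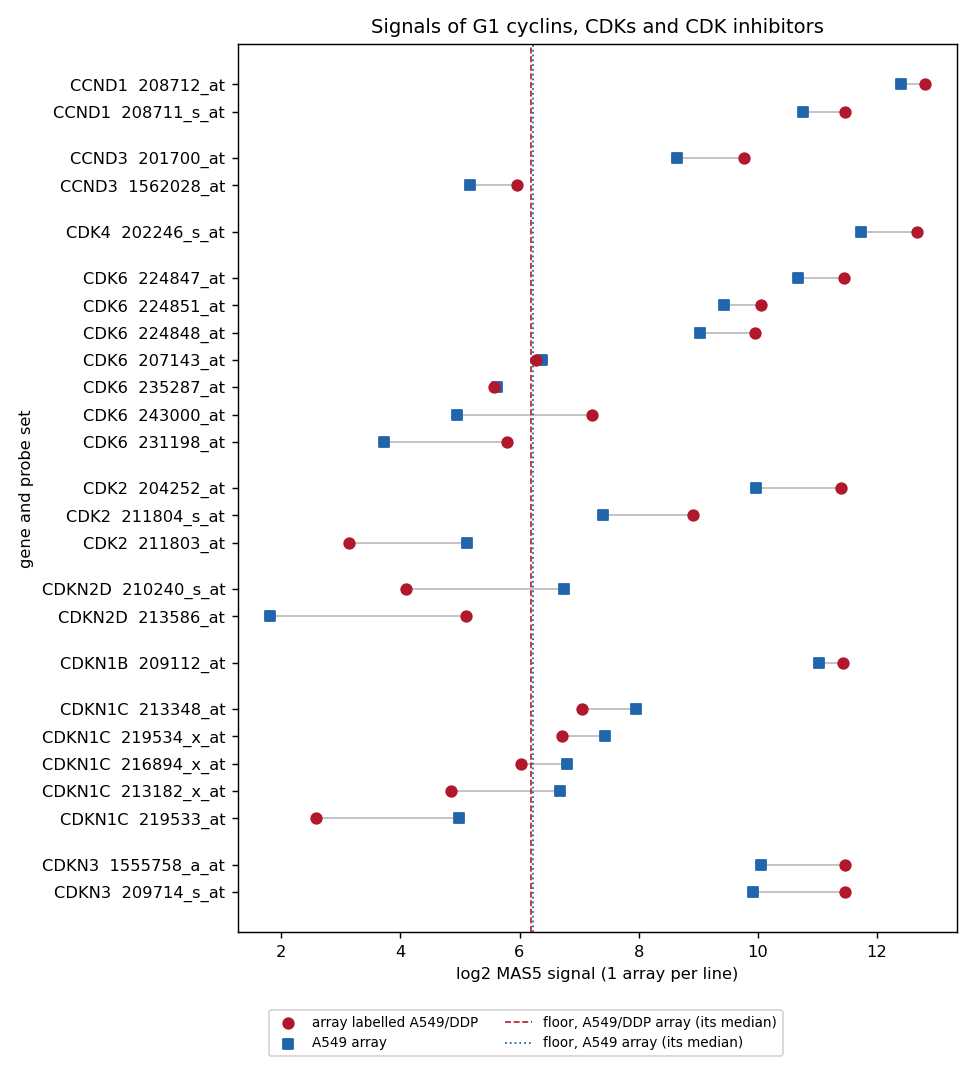
Log2 MAS5 signal (x axis) of the 25 member probe sets (y axis), with red circles for the array labelled A549/DDP, blue squares for the A549 array and vertical lines for the floors. The probe sets of CDK2 and CDKN3 that pass the floor stand to the right in A549/DDP, whereas those of CDKN1C stand to the left.

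CCND1 encodes cyclin D1, the D-type cyclin best known from carcinoma cells. Its brighter probe set, 208712_at, read 12.81 in A549/DDP and 12.41 in A549, a difference of 0.40 or 1.32-fold. The other, 208711_s_at, read 11.47 in A549/DDP and 10.77 in A549, a difference of 0.70 or 1.63-fold. Both probe sets of CCND1 were therefore higher, and both differences lay inside the range for like brightness. As a yardstick, probe sets with a mean signal within 0.5 of that of 208712_at had a central 95% of differences from -1.48 to 1.20, and for 208711_s_at the range was -1.35 to 1.25. This range describes the 2 arrays and holds true differences between the lines as well as measurement scatter. Counted in the higher direction alone, 24.1% of expressed genes had a difference above that of CCND1.

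CCND3, which encodes cyclin D3, differed more. Its probe set 201700_at read 9.77 in A549/DDP and 8.65 in A549, a difference of 1.11 or 2.17-fold, inside the range of -1.48 to 1.58 for like brightness. A second probe set, 1562028_at, was under the floor on both arrays, at 5.96 in A549/DDP and 5.16 in A549, and gave no fold. In the same direction, 4.76% of expressed genes lay above CCND3.

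CDK4, a catalytic partner of the D-type cyclins, was read by the single probe set 202246_s_at. It gave 12.68 in A549/DDP and 11.73 in A549, a difference of 0.95 or 1.93-fold. That was inside the range of -1.52 to 1.10 and short of 2-fold. In the same direction, 6.90% of expressed genes lay above CDK4.

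CDK6, the other catalytic partner, had 7 probe sets, of which 5 reached the floor on at least 1 array. The brightest, 224847_at, read 11.45 in A549/DDP and 10.68 in A549, a difference of 0.77 or 1.70-fold. A close pair of values came from 224851_at, with 10.05 in A549/DDP and 9.43 in A549, or 1.54-fold. Similarly, 224848_at read 9.95 in A549/DDP and 9.04 in A549, or 1.88-fold. These bright probe sets of CDK6 were all higher and by similar amounts, whereas the dim ones were spread widely. Close to the floor, 207143_at read 6.27 in A549/DDP and 6.38 in A549, 1.08-fold lower. In contrast, 243000_at read 7.21 in A549/DDP and 4.95 in A549, where it was under the floor, which gave at least 1.98-fold higher. Its difference before the floor, 2.25, was outside the range of -2.26 to 2.04 for like brightness. The remaining 235287_at and 231198_at were under the floor on both arrays, with 5.56 and 5.79 in A549/DDP and 5.62 and 3.72 in A549. The SD of the difference over the 5 CDK6 probe sets was 0.86, against a median SD of 0.38 over the 6570 genes for which it could be taken.

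CDK2, the partner of cyclins E and A, was among the 3 members past 2-fold. Its probe set 204252_at read 11.39 in A549/DDP and 9.97 in A549, a difference of 1.43 or 2.69-fold, just outside the range of -1.48 to 1.39 for like brightness. A second, dimmer one, 211804_s_at, read 8.92 in A549/DDP and 7.41 in A549, a difference of 1.51 or 2.85-fold, inside its range of -1.72 to 1.62. The pair had an SD of only 0.060, so both read nearly the same difference. The third, 211803_at, was under the floor on both arrays, at 3.14 in A549/DDP and 5.11 in A549. In the same direction, 2.68% of expressed genes lay above CDK2.

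**Figure D2:**
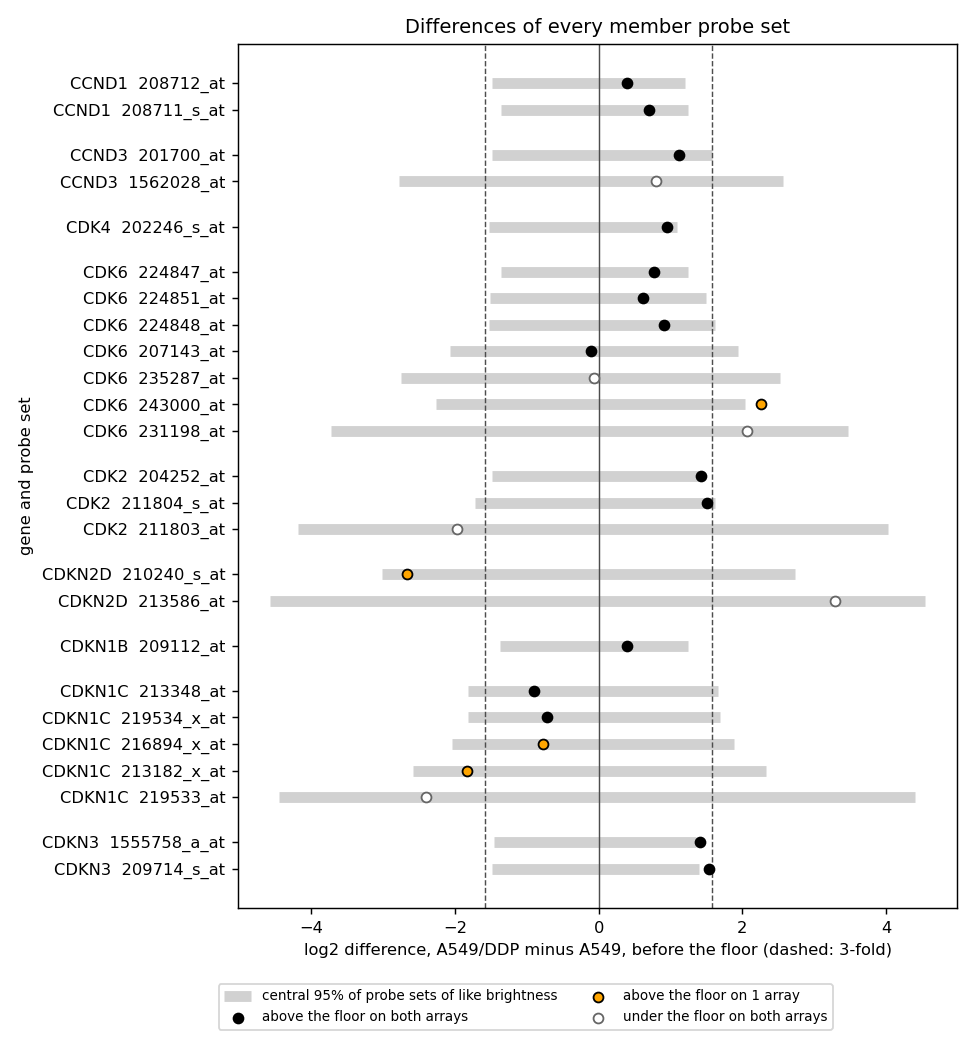
Log2 difference, A549/DDP minus A549, before the floor (x axis) for each of the 25 member probe sets (y axis), with grey bars for the central 95% of probe sets of like brightness and dashed lines at 3-fold. Of the 19 probe sets above the floor on at least 1 array, 13 were higher and 6 lower, and 4 lay outside their grey bar.

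The inhibitors did not move together, with CDKN3 and CDKN1B above 0 and CDKN1C and CDKN2D below. Sequence upstream of the start is shown for 3 of them, CDKN3, CDKN1B and CDKN2D, because their differences covered both directions. Of the 10 listed genes, 7 had a RefSeq promoter entry (GRCh38.p14), with 12 windows of 250 bases before a start. CCND1, CDK2 and CDKN1C had no entry. Capitals mark, on either strand, the letters CCAAT (the CCAAT box), GGGCGG (the GC box) and TTTGAA or TTCGAA (a core of the cell cycle homology region, CHR). The E2F letters searched were TTTGGCGC, TTTCCCGC, TTTCGCGC and TTTGCCGC. The windows run 5′ to 3′ in the direction of the gene.
CDKN3, chr14:54396757-54397006, plus strand: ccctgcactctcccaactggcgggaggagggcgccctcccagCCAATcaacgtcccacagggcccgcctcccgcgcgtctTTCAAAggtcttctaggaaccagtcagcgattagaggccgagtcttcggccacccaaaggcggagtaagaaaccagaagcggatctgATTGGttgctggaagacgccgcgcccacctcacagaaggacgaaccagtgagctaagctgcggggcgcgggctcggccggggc
CDKN1B, chr12:12717118-12717367, plus strand: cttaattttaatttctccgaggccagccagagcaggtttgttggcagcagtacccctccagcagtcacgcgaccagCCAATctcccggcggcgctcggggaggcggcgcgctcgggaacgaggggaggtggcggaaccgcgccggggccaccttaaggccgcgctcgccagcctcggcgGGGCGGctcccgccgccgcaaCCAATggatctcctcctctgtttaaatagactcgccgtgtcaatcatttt
CDKN2D, chr19:10568980-10569229, minus strand: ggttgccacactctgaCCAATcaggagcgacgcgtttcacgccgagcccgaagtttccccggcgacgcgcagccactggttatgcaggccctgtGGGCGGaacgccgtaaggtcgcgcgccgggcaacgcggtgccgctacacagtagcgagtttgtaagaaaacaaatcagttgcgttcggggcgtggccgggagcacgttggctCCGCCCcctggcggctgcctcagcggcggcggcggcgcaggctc

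The CDKN3 window held the CHR letters once, as TTCAAA 170 bases before the start, and the CCAAT letters 208 and, reversed, 83 bases before it. No other member window held the CHR letters. The CDKN1B window held CCAAT letters 174 and 50 bases before the start and GC box letters at 71. In the CDKN2D window, the CCAAT letters lay at 234 and the GC box letters at 156 and 44. None of the 12 windows held the E2F letters, and no matches overlapped in the 3 windows shown. Over all 35116 windows of the same length, 2.79% held the E2F letters, 14.3% the CHR letters, 32.0% the CCAAT letters and 42.6% the GC box letters. A match is a stretch of letters and not a site of binding.

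CDKN2D encodes p19, an INK4 inhibitor of CDK4 and CDK6. Its probe set 210240_s_at was under the floor in A549/DDP, at 4.09, and above it in A549, at 6.75. This made CDKN2D at least 1.48-fold lower, with a difference of -2.66 before the floor, inside the wide range of -3.01 to 2.74 for like brightness. The other probe set, 213586_at, was under the floor on both arrays, at 5.10 in A549/DDP and 1.82 in A549. Without a floor, 210240_s_at would make CDKN2D more than 3-fold lower, whereas 213586_at would make it higher, with a difference of 3.29. The size of the CDKN2D difference rests on a signal under the floor, and without a floor its direction depends on the probe set read.

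CDKN1B encodes p27, a CIP/KIP inhibitor that is controlled mostly through the stability of its protein. The single probe set 209112_at read 11.43 in A549/DDP and 11.03 in A549, a difference of 0.40 or 1.32-fold, inside the range of -1.37 to 1.25. In the higher direction, 24.0% of expressed genes lay above CDKN1B.

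CDKN1C encodes p57, a CIP/KIP inhibitor from an imprinted gene. The brightest of its 5 probe sets, 213348_at, read 7.05 in A549/DDP and 7.96 in A549, a difference of -0.90 or 1.87-fold lower. Next came 219534_x_at, with 6.72 in A549/DDP and 7.44 in A549, or 1.64-fold lower. In A549/DDP, 216894_x_at and 213182_x_at were under the floor at 6.02 and 4.84, and they read 6.80 and 6.67 in A549, at least 1.53-fold and 1.40-fold lower. All 4 probe sets of CDKN1C above the floor were thus lower, and each lay inside the range for its brightness, which was -1.82 to 1.67 for 213348_at. The fifth, 219533_at, was under the floor on both arrays, at 2.57 in A549/DDP and 4.98 in A549. Probe sets whose names end in _x_at can bind related transcripts, and a gene's probe sets share the same RNA and are not replicates.

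CDKN3 encodes a phosphatase that acts on CDK2 and CDK1. The probe set 1555758_a_at read 11.46 in A549/DDP and 10.06 in A549, a difference of 1.41 or 2.65-fold, outside the range of -1.46 to 1.36. The second, 209714_s_at, read 11.47 in A549/DDP and 9.93 in A549, a difference of 1.54 or 2.91-fold, outside the range of -1.48 to 1.40. The SD between both was 0.094. CDKN3 and CDK2 were thus close to each other, and in the higher direction 2.75% of expressed genes lay above CDKN3.

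**Figure D3:**
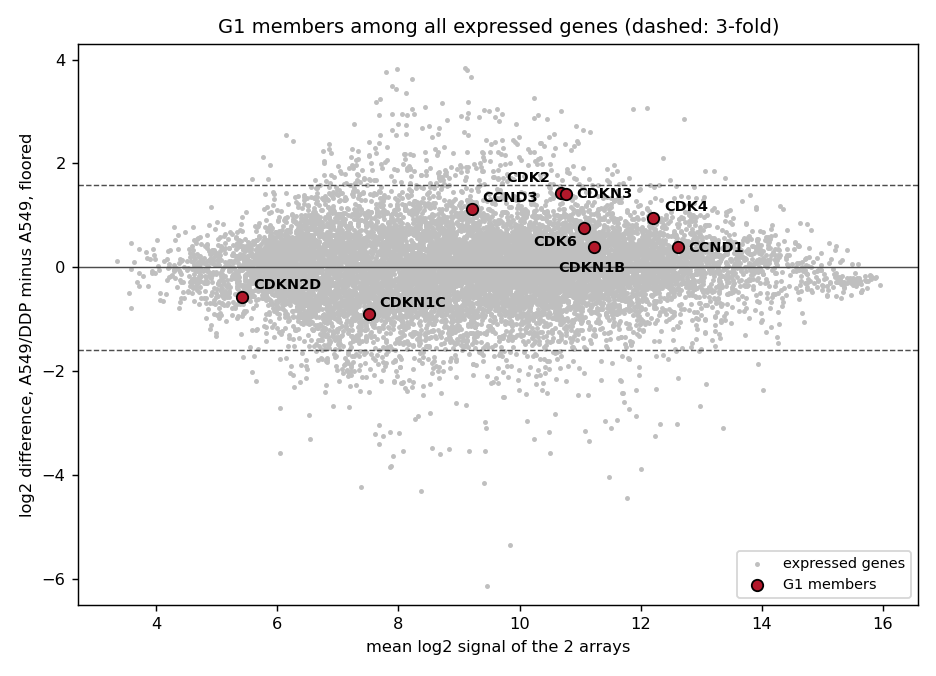
Log2 difference, A549/DDP minus A549, after the floor (y axis) against the mean log2 signal of the 2 arrays (x axis), for 13159 expressed genes in grey and the 9 members in red, with dashed lines at 3-fold. The members lie between -0.90 and 1.43, with CDK2 and CDKN3 side by side at the upper end.

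The counts in the lists below stand beside 2.14% of all expressed genes at least 3-fold higher and 2.18% lower. At 2-fold, the background was 6.13% higher and 7.4% lower. These lists are short and were chosen with earlier results of these data known. The remaining G1 and S cyclins and CDK inhibitors were read in the same way as the members. Of 7 genes, 5 were expressed, and 3 were at least 3-fold higher, all of them cyclins. CCNE2, which encodes cyclin E2, read 10.93 in A549/DDP and 7.91 in A549, 8.15-fold higher, and 4.46-fold when read by the dimmest of its probe sets above the floor. CCNA2, the gene of cyclin A2, read 10.85 in A549/DDP and 8.69 in A549, 4.47-fold higher. CCNE1, the gene of cyclin E1, read 10.59 in A549/DDP and 8.87 in A549, 3.29-fold higher. Its difference of 1.72 was 0.70 with the median over its probe sets, which takes in a probe set under the floor on both arrays. CCND2, the remaining D-type cyclin, read 6.64 in A549/DDP and was under the floor at 4.39 in A549, at least 1.34-fold higher. Its difference of 0.42 was 2.25 without a floor. CDKN1A, which encodes p21, a CIP/KIP inhibitor and p53 target, read 10.80 in A549/DDP and 11.53 in A549, 1.66-fold lower. Neither array brought the INK4 genes CDKN2A and CDKN2B above its floor, with 5.38 and 5.80 in A549/DDP and 5.01 and 1.06 in A549.

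Genes that activate or fold CDKs differed little, with 1 of 6 at least 3-fold higher, none 3-fold lower and a median difference of 0.01. The exception was CDC25A, a phosphatase that removes inhibitory phosphate from CDK2, which read 8.96 in A549/DDP and 6.42 in A549, 5.84-fold higher. Its difference of 2.55 was 0.31 with the floor at the 75th percentile and 0.64 when read by the dimmest of its probe sets above the floor. Among the rest, the difference was -0.35 for MNAT1, which helps to assemble the CDK-activating kinase, 0.30 for HSP90AB1, a chaperone, and 0.21 for CDC37, its kinase adaptor.

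Among 13 genes for the turnover of cyclins and p27, 9 were above 0 and 4 below, with 1 at least 3-fold higher, none 3-fold lower and a median of 0.11. SKP2, the F-box protein that targets p27 for degradation, read 11.15 in A549/DDP and 8.77 in A549, 5.21-fold higher. The SKP2 value comes from a probe set of the _x_at kind. CKS1B, the cofactor of SKP2 on p27, read 13.31 in A549/DDP and 12.48 in A549, 1.77-fold higher. RNF123, part of another ligase of p27, read 7.80 in A549/DDP and 8.37 in A549, 1.48-fold lower. RBX1, the RING subunit of cullin ligases, was 1.40-fold higher.

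Of 10 pocket protein and E2F genes, 2 were at least 3-fold higher and none 3-fold lower, and the median was 0.59. E2F2, an activating E2F, read 9.48 in A549/DDP and 7.42 in A549, 4.17-fold higher. RBL1, which encodes the pocket protein p107, read 9.08 in A549/DDP and 7.21 in A549, 3.65-fold higher. Read by the dimmest of the probe sets above the floor, these differences were 0.06 for E2F2 and 0.52 for RBL1, so both depend on the probe set read. TFDP1, the dimerisation partner of E2F, read 12.55 in A549/DDP and 11.37 in A549, 2.28-fold higher, and 3.55-fold by its dimmest. RBL2, which encodes p130, the pocket protein of resting cells, read 10.48 in A549/DDP and 11.48 in A549, just short of 2-fold lower, and 1.32-fold by its dimmest. RB1 differed by 0.28.

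Downstream, 12 of 13 E2F target genes of S phase were measured, and 10 of the 12 were at least 3-fold higher, with a median of 1.80. All 12 were at least 2-fold higher. RRM2, a subunit of ribonucleotide reductase, read 14.15 in A549/DDP and 11.29 in A549, 7.25-fold higher. MCM2, MCM4 and MCM3, subunits of the replicative helicase, were 5.91-fold, 4.86-fold and 4.82-fold higher, and the dimmest MCM4 probe set gave 3.05-fold.

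Of 8 genes of G2 and mitosis, 6 were at least 3-fold higher, with a median of 1.97, and 2 were when each gene was read by its dimmest probe set above the floor. CDK1 read 13.41 in A549/DDP and 11.31 in A549, 4.27-fold higher, and 2.02-fold by its dimmest probe set above the floor. Its partner cyclin gene CCNB1 read 12.16 in A549/DDP and 9.77 in A549, 5.23-fold higher, and 3.01-fold by its dimmest. PLK1, a mitotic kinase, had 1 probe set, which read 7.09 in A549/DDP and 6.68 in A549, not far above the floors, and was 1.33-fold higher. With each gene read by its brightest probe set, the medians of the S-phase and mitotic lists thus lay above the 0.77 of the G1 members. For the mitotic list this depends on the probe set read. By the dimmest, CCNB2 was at -0.46, PLK1 at 0.41, AURKA at 0.53, BUB1 at 0.63 and TOP2A at 0.91. These lay under the member median of 0.95 in that setting, whereas CDK1, CCNB1 and MKI67 lay above it. The difference between lists was not tested. How far the share of cycling cells differed between the cultures was not tested.

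Finally, 9 of 10 genes that feed into the transcription of cyclin D or p27 were expressed, with 2 at least 3-fold lower, none 3-fold higher and a median of -0.26. EGR1, an immediate-early transcription factor, read 7.17 in A549/DDP and 12.52 in A549, 40.8-fold lower. Under other floors and probe sets, EGR1 was down to 13.8-fold lower. FOS, an AP-1 subunit, was under the floor at 4.05 in A549/DDP and read 8.50 in A549, at least 4.96-fold lower, a bound that would be 21.8-fold without a floor. JUN, another AP-1 subunit, read 12.47 in A549/DDP and 13.87 in A549, 2.64-fold lower, and past 3-fold lower with the median over its probe sets. CTNNB1, which encodes beta-catenin, differed by 0.59, but by 1.63 with the median over its probe sets and by -0.16 with the dimmest, so its direction is not settled. MYC differed by -0.26.

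**Figure D4:**
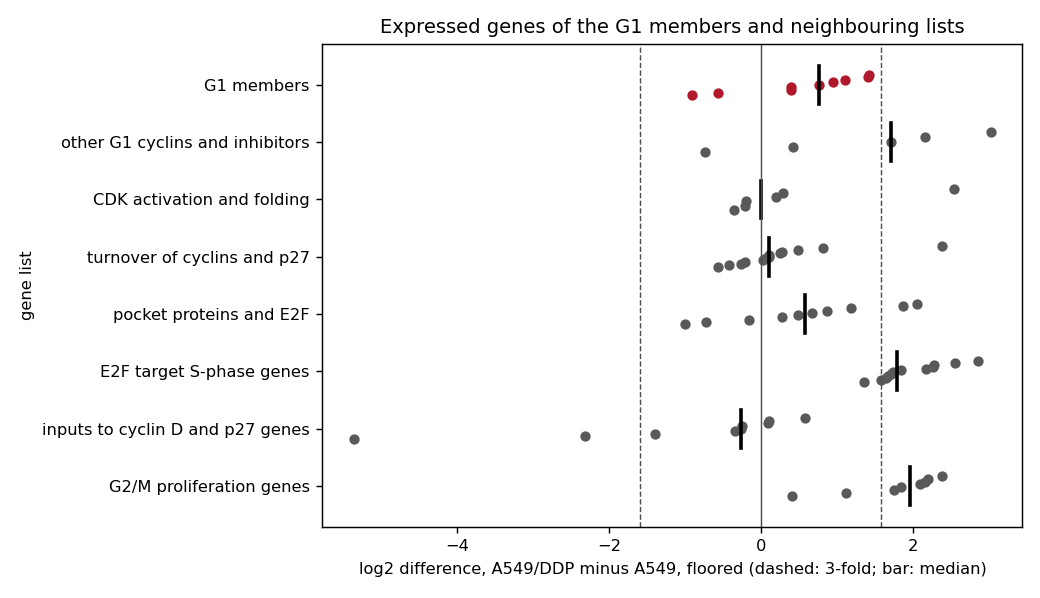
Log2 difference, A549/DDP minus A549, after the floor (x axis) of each expressed gene in the G1 members (red) and 7 neighbouring gene lists (grey), with a bar at the median of each list and dashed lines at 3-fold. The medians are 0.77 for the G1 members, 1.80 for E2F target genes of S phase, 1.97 for genes of G2 and mitosis and -0.26 for inputs to the cyclin D and p27 genes.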

How the data were processed

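Total RNA of A549/DDP and A549 was measured with 1 Affymetrix HG-U133 Plus 2.0 array for each line, and groups were taken from the sample titles. The deposited values are log2 signals that the authors computed. For these, MAS5 and affy are named without versions in the submitters' processing notes, whereas the methods of the study name SCAN with UPC. The mean signal on the linear scale, after leaving out 2% of probe sets at each end, was 500.1 on both arrays, as MAS5 scaling gives. Low MAS5 signals scatter widely. The values were used as deposited.

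A further table names A549-LV5 and A549-ZNF300 cells, which are no samples of this series. Its 4 columns of signals and calls were not used, nor were its ratios of those cells, which are a comparison by the authors.

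Of 54675 probe sets, 41091 were given to 1 gene by the platform annotation, 1801 to several and 11777 to none listed. The counts for several and for none include controls. All 62 controls were left out of the floors and gene counts, and probe sets with several genes were not named. By gene ID, 41037 were matched to RefSeq (GRCh38.p14). Each gene was read by its brightest probe set over both arrays. Values under the floor, the array median over probe sets other than controls, were set to the floor, which makes the fold a lower bound ("at least"). A gene under the floor on both arrays had no fold. The threshold was 3-fold, as in the study. The number of arrays, the scatter of dim signals and the spread between probe sets of a gene limit the precision.

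The text names all members, all other G1 cyclins and inhibitors of the list, up to 4 genes with the largest difference in each further list, and ZNF300. Apart from that, PLK1, CCNB2, MKI67, RB1, MYC, TOP2A, E2F1, MCM7 and the markers named singly were picked after their values were seen. Members and lists were chosen with earlier results of these data known. The 12 alternatives were median centring, quantile normalization, loess (span 0.3), no floor, a floor at the 25th or at the 75th percentile, median or dimmest probe set, leaving out _x_at and _s_at probe sets, taking in probe sets with several genes, and thresholds of 2-fold and 5-fold. The steps were tested on simulated data and run in Python 3.11.15 with pandas 2.3.3 and statsmodels 0.14.6.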

Additional observations from a re-analysis of the deposited data

How the results depend on the processing

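The direction of each of the 9 members was the same under every scaling, floor and probe set alternative that gave it a value, 7 for CDKN2D, 9 for CDK4 and CDKN1C and 10 for each other member. Some of these alternatives could not change a value, so their number is no measure of support. No alternative took its value solely from a probe set that pointed the other way, such as 207143_at of CDK6, at -0.11. Nor did any take it solely from 213586_at of CDKN2D, at 3.29 before the floor. CDK4 and CDKN1B have 1 probe set each, which leaves no choice of probe set. Taking in probe sets with several genes left all 9 members at their main values. The median difference of the members lay between 0.75 and 0.95. In no alternative was a member 3-fold higher, and the 2-fold threshold counted 3 members as higher. No member was 3-fold lower, except that CDKN2D was, giving a count of 1, without a floor (-2.66) and with the floor at the 25th percentile (-2.42). With the floor at the 75th percentile, 7 members were expressed, and CDKN1C and CDKN2D dropped out. Read by the dimmest of its probe sets above the floor, CDKN1C was -0.49. Of 25 neighbouring genes past 3-fold, 8 fell short in at least 1 alternative: CDC25A, RBL1, E2F2, CCNE1, TOP2A, CDK1, AURKA and BUB1. Of 38 that were short of it, 6 passed in at least 1: CCND2, E2F1, TFDP1, MCM7, JUN and CTNNB1. Over all genes, 281 were 3-fold higher and 287 lower, against 1720 and 1935 without a floor, 673 and 860 with the floor at the 25th percentile and 127 and 122 with it at the 75th. No paired analysis was possible because each line had 1 array.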
